A study of Mus musculus with 15 samples.

Results

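The Slc25 family of solute carriers was followed across 5 conditions of one mouse melanocyte line. Members were taken as every gene whose probe set was annotated to exactly 1 symbol of the form Slc25a and a number. Of 22180 genes with such an annotation, 46 were carriers, and each was read by 1 probe set. RNA came from melan-Ink4a-Arf-1 (melan-a), an immortalized line of pigment cells from Cdkn2a tm1RDp/tm1RDp mice, which lack a tumour suppressor locus. All cells grew at 37 °C in RPMI 1640 with 10% serum, 200 nM of the phorbol ester 12-O-tetradecanoylphorbol 13-acetate and 200 pM cholera toxin. Each of the 5 groups had 3 arrays, which the series calls biological triplicates.

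The normoxia group was kept at about 21% oxygen with 10% CO2. The 4 hypoxic groups were held for 24 h in 1% oxygen with 5% CO2, so low oxygen and the lower CO2 cannot be told apart. Of these, one was labelled control and is called the hypoxia control, and one was labelled negative control. What either received is not described further, and the negative control is the comparator used for the siRNAs. Si1 and Si6 are named for the 2 siRNAs (small interfering RNAs) that were transfected against Hif1a 24 h before hypoxia, 1 in each group. Hif1a encodes the oxygen-regulated subunit of the transcription factor HIF-1. All results come from a single cell line, and the cultures differ from pigment cells in skin in lacking Cdkn2a and in growing with a phorbol ester and cholera toxin.

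Carriers of the Slc25 family are small proteins, most of which sit in the inner mitochondrial membrane. They exchange nucleotides, phosphate, carboxylic acids, amino acids, cofactors and metal ions between the cytosol and the matrix, and so link respiration, heme and nucleotide synthesis to the rest of the cell. HIF-1 is known for turning cells toward glycolysis and away from mitochondrial respiration. In melanocytes, mitochondria supply energy and precursors, while pigment itself is made in separate organelles, the melanosomes.

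Values are deposited log2 intensities, and the median of an array lay between 6.52 and 6.61. A difference is a log2 fold change ± limma's standard error, and a gene passed when its p, adjusted over all 22180 genes of a comparison, was under 0.05. Levels of different carriers cannot be compared, because each probe set has its own brightness. Hif1a mRNA, the siRNA target, averaged 8.65 ± 0.09 (SD, n = 3) with Si1 and 8.93 ± 0.04 with Si6. In normoxia it averaged 10.34 ± 0.03, and the hypoxic controls were at 10.59 ± 0.05 and 10.63 ± 0.06. All 10 listed melanocyte markers were measured. Their mean on an array was 11.76 to 11.83 in normoxia, 11.44 to 11.49 for the hypoxia control, 10.82 to 10.85 for the negative control, 10.45 to 10.53 for Si1 and 11.22 to 11.30 for Si6, so these markers moved with the groups compared. Array means of the keratinocyte, fibroblast, immune and endothelial markers lay between 5.90 and 7.02, with 3 of 4 listed keratinocyte markers measured. These means hide brighter single markers, such as Col1a1 at 9.35 in normoxia and Cd68 at 9.65 with Si1. Fewer cells of a kind and less RNA per cell cannot be told apart in such samples.

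More carriers were lower in hypoxia than were higher. Of the 46, 18 were lower (39.1%) in the hypoxia control than in normoxia and 3 were higher (6.52%), while 11.2% of all genes passed as lower and 9.87% as higher. By mean level 36 of the 46 were above the median of all genes, so these shares are not matched for brightness. Without the dimmest 50% of genes, 18 of 36 carriers were lower and 3 higher, beside 2754 and 2261 of all 11090 genes left. The median log2 fold change of the carriers was -0.06, and that of all genes was -0.0016. The negative control, set against the same normoxia arrays, had 19 carriers lower (41.3%) and 6 higher (13%), where 15.7% and 14.6% of all genes passed. Its median over the carriers was -0.14. Both comparisons share the normoxia arrays and are therefore not independent. In the hypoxia control, the 18 lower members were Slc25a5, Slc25a10, Slc25a15, Slc25a16, Slc25a20, Slc25a23, Slc25a24, Slc25a26, Slc25a27, Slc25a28, Slc25a30, Slc25a33, Slc25a35, Slc25a37, Slc25a38, Slc25a39, Slc25a42 and Slc25a44, and the 3 higher ones were Slc25a13, Slc25a22 and Slc25a36. Melanocyte markers moved in the same comparisons, with 6 of 10 lower in the hypoxia control and 9 of 10 in the negative control. Of 4 fibroblast markers 2 were lower, Col1a1 and Col1a2, and of 4 immune markers 1 was higher, Cd68, in each of these comparisons. Cd68, a lysosomal protein of macrophages, was 0.46 ± 0.08 higher in the hypoxia control and 0.40 ± 0.08 higher in the negative control. Their part in the carrier result was not tested.

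With Hif1a depleted in hypoxia, more carriers were raised than were lowered. With Si1, 19 carriers were higher (41.3%) than in the negative control and 9 were lower (19.6%), where 20.2% and 14.8% of all genes passed. With Si6, 18 were higher (39.1%) and 5 lower (10.9%), where 17% and 11.9% of all genes passed. These shares are again not matched for brightness. Without the dimmest 50% of genes, 19 of 36 carriers were higher and 10 lower with Si1, beside 4195 and 2906 of 11090 genes. With Si6, 19 of those 36 were higher and 5 lower, beside 4007 and 2358. Medians over the carriers were 0.03 with Si1 and 0.09 with Si6, beside -0.01 for all genes in each. Both siRNA comparisons use the same negative control arrays. Of the melanocyte markers, 6 of 10 were lower with Si1 and 6 of 10 were higher with Si6. Of the fibroblast markers 2 of 4 were lower with each, Col1a1 and Dcn, and Col1a2 was higher with Si6 at 0.47 ± 0.05 (adjusted p = 4.92e-06). Of the immune markers 1 of 4 was higher with Si1, Cd68 at 1.33 ± 0.08 (adjusted p = 4.21e-09). The part of these markers in the carrier counts was not tested.

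The comparison of the hypoxia control with normoxia and the siRNA comparisons have no array in common. Of the 18 carriers lower in the hypoxia control, 13 rose with Si1 (72.2%) and 14 with Si6 (77.8%). Over all genes, 54.9% of the 2474 lower in the hypoxia control were higher with Si1 and 59% with Si6. Read the other way, those 13 made up 68.4% of the 19 carriers that rose with Si1, beside 30.3% over all genes. The 14 made up 77.8% of the 18 that rose with Si6, beside 38.7%. Genes lower in hypoxia and higher with the siRNA were 6.12% of all genes for Si1 and 6.58% for Si6. The opposite order, higher in hypoxia and lower with a siRNA, was met by 1 of 46 carriers for each siRNA, Slc25a36, beside 4.74% of all genes for Si1 and 4.83% for Si6. That count for Si1 was 3 after another quantile normalization and 2 under several other alternatives, among them leaving out Si1 replicate c. Slc25a36 was 1 of the 3 carriers higher in the hypoxia control (33.3%), whereas of all 2190 genes higher there 48% were lower with Si1 and 48.9% with Si6. The carriers lower in the hypoxia control that did not rise with either siRNA were Slc25a23, Slc25a24, Slc25a26 and Slc25a27.

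**Figure D1:**
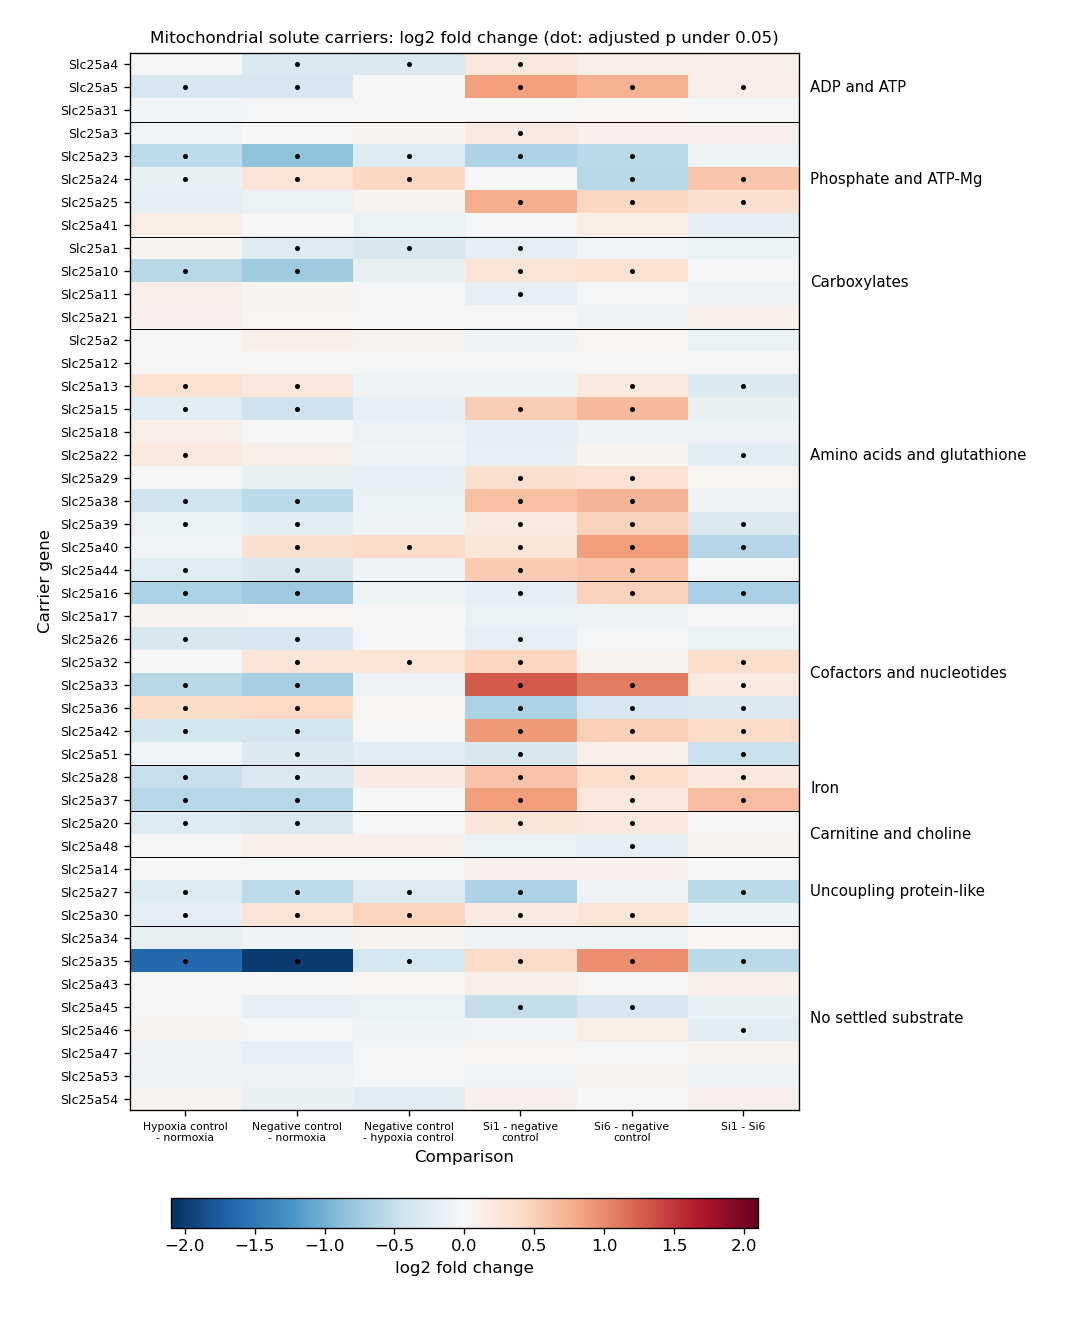
Log2 fold changes of the 46 Slc25 carriers, in rows grouped by substrate, in 6 comparisons, in columns. Blue is lower and red is higher in the first-named group, and a dot marks an adjusted p under 0.05. A reader sees 18 dots on blue and 3 on red in the hypoxia control column, and 19 dots on red in the Si1 column.

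Promoters were read to show the sequence around the starts of members with the largest hypoxia rise or siRNA fall. HIF-1 is known to bind DNA at the letters ACGTG or GCGTG, and these were searched on both strands in RefSeq windows of 300 bases on the build GRCm38.p6, from 250 before to 50 after a gene's start. The letters ACGTG occur in 19.6% of all 32851 windows, GCGTG in 32.4% and either in 43.8%. Of the 46 carriers, 36 had a window, and 27 of their 46 windows (58.7%) held either motif. Windows of 1 gene can overlap. A match is a description of the letters and not evidence of binding. Those printed are of Slc25a36, which was higher in hypoxia and lower with both siRNAs, and of Slc25a23 and Slc25a24, which fell with at least 1 siRNA. Capitals mark matches to either motif on either strand. The first capitals of Slc25a36 read as ACGTG on both strands, so these matches overlap, and the 2 others are GCGTG on opposite strands. Slc25a23 holds 1 match to GCGTG, and Slc25a24 holds none. Slc25a36 lies at chr9:97110992-97111291 on the minus strand, Slc25a23 at chr17:57059814-57060113 on the minus strand and Slc25a24 at chr3:109122899-109123198 on the plus strand. Slc25a27 also ranked among these falls.
Slc25a36: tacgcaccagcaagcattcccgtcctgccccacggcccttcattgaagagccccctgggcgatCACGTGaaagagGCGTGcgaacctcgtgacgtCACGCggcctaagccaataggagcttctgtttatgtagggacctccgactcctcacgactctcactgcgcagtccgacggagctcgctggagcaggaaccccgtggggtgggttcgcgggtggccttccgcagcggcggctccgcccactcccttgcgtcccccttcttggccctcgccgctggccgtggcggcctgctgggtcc
Slc25a23: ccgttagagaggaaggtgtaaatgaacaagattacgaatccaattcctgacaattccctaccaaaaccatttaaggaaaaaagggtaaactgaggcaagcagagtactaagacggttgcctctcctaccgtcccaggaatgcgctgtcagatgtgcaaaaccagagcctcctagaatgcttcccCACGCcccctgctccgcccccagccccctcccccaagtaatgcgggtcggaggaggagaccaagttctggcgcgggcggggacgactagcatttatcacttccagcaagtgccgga
Slc25a24: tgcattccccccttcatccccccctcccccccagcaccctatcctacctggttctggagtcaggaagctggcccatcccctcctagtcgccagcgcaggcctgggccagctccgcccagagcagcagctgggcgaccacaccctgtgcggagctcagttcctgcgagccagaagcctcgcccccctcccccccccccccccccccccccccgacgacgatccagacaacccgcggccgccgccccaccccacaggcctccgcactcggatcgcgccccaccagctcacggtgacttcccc

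ADP/ATP carriers bring cytosolic ADP into the matrix and send ATP out. Of the 3 measured, 1 was lower in the hypoxia control (33.3%, beside 11.2% of all genes), Slc25a5, the form of growing cells. Its values were 11.14, 11.08 and 11.14 in normoxia, 10.80, 10.75 and 10.74 for the hypoxia control, 10.71, 10.74 and 10.83 for the negative control, 11.66, 11.59 and 11.62 for Si1, and 11.46, 11.52 and 11.46 for Si6. Both hypoxic controls lay below normoxia and both siRNA groups lay above normoxia, with no overlap between a group and its comparator. The difference was -0.35 ± 0.05 (adjusted p = 6.32e-05) for the hypoxia control against normoxia. It rose by 0.87 ± 0.05 with Si1 (adjusted p = 1.59e-09) and by 0.72 ± 0.05 with Si6 (adjusted p = 2.58e-08). Slc25a4, the heart and muscle form, gave -0.01 ± 0.06 in the hypoxia control (adjusted p = 0.968) and was lower in the negative control at -0.32 ± 0.06 (adjusted p = 0.000784). It rose with Si1 at 0.23 ± 0.06, and the 0.10 ± 0.06 with Si6 did not pass (adjusted p = 0.258). Slc25a31, the germ cell form, averaged 5.59 over the 15 arrays and passed in none of the 7 comparisons.

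The 2 iron importers formed the one group in which every measured member was lower in hypoxia and higher with each siRNA. Members of other groups shared this pattern. It was met by 13 of the 46 carriers for Si1 and 14 for Si6, beside 6.12% and 6.58% of all genes. Iron importers are the mitoferrins, which supply iron for heme and iron-sulfur clusters. Slc25a37, mitoferrin 1, read 10.09, 10.14 and 10.26 in normoxia, 9.53, 9.58 and 9.59 for the hypoxia control, 9.63, 9.45 and 9.59 for the negative control, 10.39, 10.44 and 10.45 for Si1, and 9.79, 9.80 and 9.76 for Si6. Hypoxia control and negative control arrays were all below normoxia, Si1 arrays were the highest of the hypoxic arrays, and Si6 lay between the negative control and Si1. The log2 fold changes were -0.60 ± 0.06 (adjusted p = 1.91e-06) in the hypoxia control, 0.87 ± 0.06 with Si1 (adjusted p = 1.02e-08) and 0.22 ± 0.06 with Si6 (adjusted p = 0.00705). Slc25a28, mitoferrin 2, differed by -0.48 ± 0.06 (adjusted p = 4.94e-05) for the hypoxia control, -0.31 ± 0.06 for the negative control, 0.60 ± 0.06 with Si1 and 0.37 ± 0.06 with Si6. Averaged over both siRNAs, Slc25a37 was -0.06 ± 0.05 from normoxia and did not pass (adjusted p = 0.398). That average hides a split, with all Si1 arrays of Slc25a37 above normoxia and all its Si6 arrays below normoxia. For Slc25a28 the average was 0.17 ± 0.06 above normoxia (adjusted p = 0.0217). That difference of Slc25a28 no longer passed without normoxia replicate a or b.

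Amino acid and glutathione carriers numbered 11, of which 4 were lower (36.4%) and 2 higher (18.2%) in the hypoxia control, beside 11.2% and 9.87% of all genes. With Si1 6 rose (54.5%, beside 20.2% of all genes) and with Si6 7 rose (63.6%, beside 17%), and limma called 0 lower with either. At an unadjusted p under 0.05, 2 were lower with Si1 and 0 with Si6. Slc25a38, which imports glycine for the first step of heme synthesis, read 8.08, 8.10 and 8.12 in normoxia, 7.63, 7.71 and 7.69 for the hypoxia control, 7.54, 7.41 and 7.64 for the negative control, 8.08, 8.19 and 8.22 for Si1, and 8.34, 8.17 and 8.22 for Si6. All arrays of both hypoxic controls were below normoxia and all siRNA arrays were above the negative control. The differences were -0.42 ± 0.06 (adjusted p = 0.00018) in the hypoxia control, 0.63 ± 0.06 with Si1 (adjusted p = 1.1e-06) and 0.71 ± 0.06 with Si6 (adjusted p = 5.93e-07).

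Slc25a15, the ornithine/citrulline exchanger of the urea cycle, read 8.72, 8.65 and 8.65 in normoxia, 8.57, 8.42 and 8.26 for the hypoxia control, 8.23, 8.28 and 8.20 for the negative control, 8.74, 8.76 and 8.79 for Si1, and 8.96, 8.89 and 8.93 for Si6. Normoxia lay above both hypoxic controls, and both siRNA groups lay above normoxia. It differed by -0.26 ± 0.07 (adjusted p = 0.01) in the hypoxia control, a call lost without replicate c of that group and with only the compared groups fitted. It rose by 0.52 ± 0.07 with Si1 and 0.69 ± 0.07 with Si6. Slc25a44, a carrier of branched-chain amino acids, was lower in the hypoxia control at -0.26 ± 0.07 (adjusted p = 0.0132) and higher by 0.55 ± 0.07 with Si1 and 0.59 ± 0.07 with Si6. Its hypoxia call was lost without hypoxia control replicate a or without normoxia replicate b.

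Slc25a40 and Slc25a39 import glutathione, the main antioxidant thiol of the matrix. Slc25a40 read 8.71, 8.87 and 8.66 in normoxia, 8.69, 8.64 and 8.75 for the hypoxia control, 9.17, 9.03 and 9.06 for the negative control, 9.34, 9.38 and 9.32 for Si1, and 9.89, 10.06 and 9.95 for Si6. The hypoxia control overlapped normoxia, the negative control lay above both, and Si6 was the highest group. The siRNAs raised it by 0.26 ± 0.07 with Si1 (adjusted p = 0.00528) and 0.88 ± 0.07 with Si6 (adjusted p = 7.67e-08). It also differed between the hypoxic controls, at 0.39 ± 0.07 in the negative control (adjusted p = 0.000543). Slc25a39 was lower in the hypoxia control at -0.15 ± 0.05 (adjusted p = 0.0357) and rose by 0.18 ± 0.05 with Si1 and 0.48 ± 0.05 with Si6. The hypoxia call of Slc25a39 was lost under 9 of 23 alternatives, among them leaving out any 1 array of either group.

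The 2 members of this class that rose in the hypoxia control, Slc25a13 and Slc25a22, carry glutamate, while in the negative control the 2 that rose were Slc25a13 and the glutathione importer Slc25a40. Slc25a13, citrin, which exchanges aspartate for glutamate, was higher by 0.32 ± 0.06 (adjusted p = 0.000842) in the hypoxia control and by 0.24 ± 0.06 in the negative control. It differed by -0.09 ± 0.06 with Si1 (adjusted p = 0.295) and rose by 0.21 ± 0.06 with Si6. This Si6 call was lost with only the compared groups fitted and without negative control replicate c or Si6 replicate b. Slc25a22, a glutamate importer, was higher by 0.21 ± 0.07 in the hypoxia control (adjusted p = 0.0373) and gave 0.13 ± 0.07 in the negative control (adjusted p = 0.182). The first was lost on median centring, with only the compared groups fitted, and without any 1 hypoxia control array or normoxia replicate b. The paralogue of citrin, Slc25a12, passed in no comparison and lay between -0.04 and 0.03 in all 7. Slc25a29, which carries basic amino acids, gave 0.01 ± 0.09 in the hypoxia control (adjusted p = 0.946) and rose by 0.34 ± 0.09 with Si1 and 0.30 ± 0.09 with Si6, the last lost without negative control replicate a or Si6 replicate b. Slc25a2 and Slc25a18 were dim and passed in none.

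Cofactor and nucleotide carriers were 8, of which 4 were lower (50%) and 1 was higher (12.5%) in the hypoxia control, beside 11.2% and 9.87% of all genes. With Si1 3 rose (37.5%) and 4 fell (50%), beside 20.2% and 14.8% of all genes. With Si6 3 rose (37.5%) and 1 fell (12.5%), beside 17% and 11.9%. Slc25a33 carries pyrimidine nucleotides and had the largest siRNA rise of the 46. It read 8.00, 8.01 and 7.93 in normoxia, 7.39, 7.49 and 7.34 for the hypoxia control, 7.27, 7.32 and 7.28 for the negative control, 8.60, 8.53 and 8.60 for Si1, and 8.45, 8.32 and 8.34 for Si6. Hypoxic control arrays were below normoxia and every siRNA array was above it. Slc25a33 was lower in the hypoxia control at -0.58 ± 0.05 (adjusted p = 1.62e-06) and rose by 1.29 ± 0.05 with Si1 (adjusted p = 9.13e-11) and 1.08 ± 0.05 with Si6 (adjusted p = 1.22e-09).

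Its relative Slc25a36 moved the other way. This second pyrimidine nucleotide carrier read 10.21, 10.34 and 10.33 in normoxia, 10.70, 10.65 and 10.69 for the hypoxia control, 10.73, 10.74 and 10.70 for the negative control, 10.06, 10.07 and 10.06 for Si1, and 10.37, 10.41 and 10.30 for Si6. Both hypoxic controls were above normoxia, and the siRNA groups were below the negative control without overlap. The rise was 0.39 ± 0.05 (adjusted p = 3.89e-05) in the hypoxia control and 0.43 ± 0.05 in the negative control (adjusted p = 7.14e-06). It fell with both siRNAs, at -0.66 ± 0.05 for Si1 (adjusted p = 4.48e-08) and -0.36 ± 0.05 for Si6 (adjusted p = 4.47e-05). All Si1 arrays were below normoxia, while the Si6 arrays overlapped normoxia. Averaged over these siRNAs, which differed by -0.30, Slc25a36 was -0.08 ± 0.04 from normoxia and did not pass (adjusted p = 0.155). Its promoter window is printed above.

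Slc25a42, a coenzyme A carrier, read 8.39, 8.41 and 8.39 in normoxia, 7.95, 8.01 and 8.10 for the hypoxia control, 8.03, 8.06 and 7.93 for the negative control, 8.96, 8.95 and 8.82 for Si1, and 8.54, 8.50 and 8.48 for Si6. Normoxia exceeded both hypoxic controls, and both siRNA groups exceeded normoxia. The log2 fold changes were -0.38 ± 0.06 (adjusted p = 0.000166) in the hypoxia control, 0.90 ± 0.06 with Si1 and 0.50 ± 0.06 with Si6. Slc25a16, which is linked to coenzyme A, read 10.05, 10.17 and 10.15 in normoxia, 9.50, 9.49 and 9.40 for the hypoxia control, 9.41, 9.40 and 9.29 for the negative control, 9.09, 9.21 and 9.18 for Si1, and 9.92, 9.82 and 9.80 for Si6. Normoxia was the highest group, and Si6 was the highest hypoxic group. Slc25a16 was lower in the hypoxia control at -0.66 ± 0.06 (adjusted p = 8.38e-07), and rose by 0.48 ± 0.06 with Si6 (adjusted p = 1.24e-05). With Si1 it was lower, at -0.21 ± 0.06 (adjusted p = 0.0121), a call lost on median centring and without negative control replicate a or Si1 replicate a. Si1 and Si6 differed by -0.69 ± 0.06 (adjusted p = 3.11e-07).

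Slc25a32, a carrier of folate and FAD, read 7.99, 7.95 and 8.17 in normoxia, 7.95, 8.04 and 8.07 for the hypoxia control, 8.32, 8.30 and 8.28 for the negative control, 8.78, 8.76 and 8.70 for Si1, and 8.43, 8.32 and 8.35 for Si6. Normoxia and the hypoxia control overlapped, and Si1 was the highest group. The change was -0.02 ± 0.06 for the hypoxia control (adjusted p = 0.912), 0.26 ± 0.06 for the negative control (adjusted p = 0.00338), 0.45 ± 0.06 with Si1 (adjusted p = 2.34e-05) and 0.07 ± 0.06 with Si6 (adjusted p = 0.474). Slc25a26, which imports S-adenosylmethionine, the methyl donor, was lower in the hypoxia control at -0.33 ± 0.06 (adjusted p = 0.000665) and at -0.35 ± 0.06 in the negative control. With Si1 it was lower again at -0.17 ± 0.06, a call lost on median centring and in 7 other alternatives, and with Si6 it gave -0.03 ± 0.06 (adjusted p = 0.793). Slc25a51, the mitochondrial NAD carrier, gave -0.06 ± 0.08 in the hypoxia control (adjusted p = 0.699) and was lower in the negative control at -0.30 ± 0.08, a call lost without replicate c of either group. With Si1 it was lower at -0.34 ± 0.08, with Si6 it gave 0.12 ± 0.08 (adjusted p = 0.31), and the siRNAs differed by -0.46 ± 0.08 (adjusted p = 0.000414). Slc25a17, a carrier of the peroxisome, passed in no comparison.

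**Figure D2:**
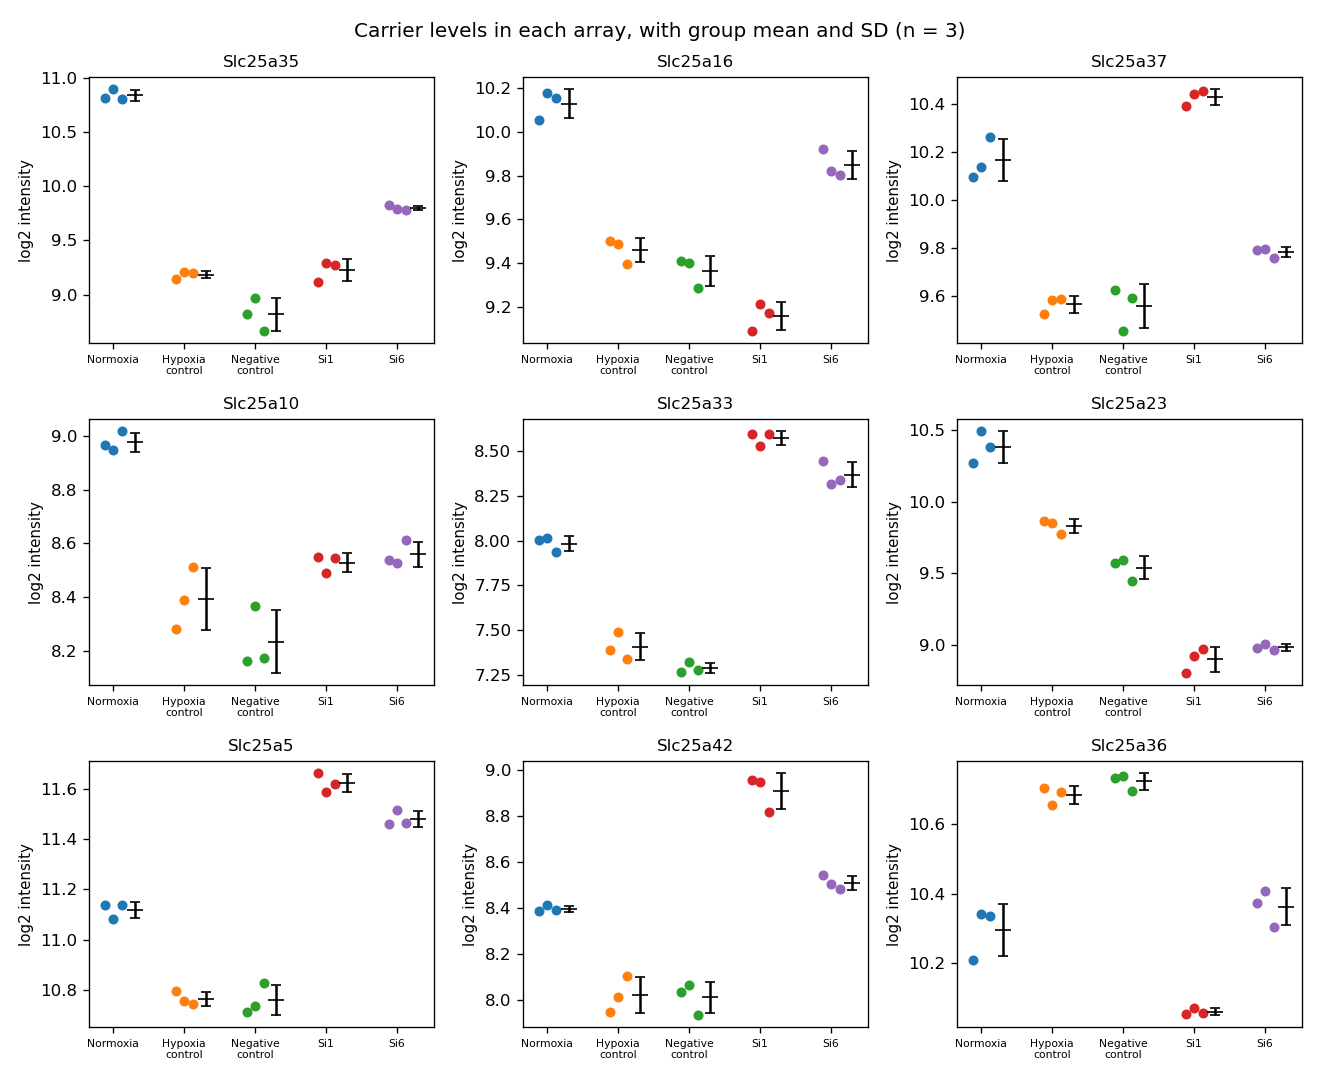
Deposited log2 intensity, on the vertical axis, of 9 carriers in the 5 groups, with 1 point per array and a mean ± SD bar (n = 3). Slc25a35 goes from 10.80 or more in normoxia to 9.21 or less in both hypoxic controls, and Slc25a33 and Slc25a5 exceed normoxia with both siRNAs. Slc25a36 is above normoxia in both hypoxic controls, below normoxia with Si1 and overlaps normoxia with Si6.

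Phosphate and ATP-Mg carriers set the phosphate and adenine nucleotide content of the matrix. Of 5, 2 were lower in the hypoxia control (40%, beside 11.2% of all genes). Slc25a23, a calcium-regulated ATP-Mg/phosphate exchanger, read 10.27, 10.49 and 10.39 in normoxia, 9.87, 9.85 and 9.78 for the hypoxia control, 9.57, 9.60 and 9.45 for the negative control, 8.80, 8.92 and 8.97 for Si1, and 8.98, 9.01 and 8.96 for Si6. Normoxia was highest, both hypoxic controls were lower, and both siRNA groups were lower still, with Si1 and Si6 overlapping. Slc25a23 was lower in the hypoxia control at -0.55 ± 0.07 (adjusted p = 1.59e-05) and at -0.84 ± 0.07 in the negative control (adjusted p = 7.2e-08). It fell further, at -0.64 ± 0.07 with Si1 (adjusted p = 1.03e-06) and -0.56 ± 0.07 with Si6 (adjusted p = 7.59e-06). Averaged over both siRNAs it stood -1.44 ± 0.06 against normoxia, which leaves 36.8% of the normoxic level.

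Slc25a23 has the calcium-regulated paralogues Slc25a25 and Slc25a24. Slc25a25 read 7.09, 7.07 and 7.00 in normoxia, 6.85, 6.84 and 6.88 for the hypoxia control, 6.89, 6.82 and 7.05 for the negative control, 7.57, 7.61 and 7.86 for Si1, and 7.49, 7.30 and 7.26 for Si6. The hypoxia control lay below normoxia, the negative control overlapped normoxia, and the siRNA groups were above all of them. It differed by -0.19 ± 0.08 in the hypoxia control (adjusted p = 0.119) and rose by 0.76 ± 0.08 with Si1 (adjusted p = 2.03e-06) and 0.43 ± 0.08 with Si6 (adjusted p = 0.000744).

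Slc25a24 read 10.32, 10.34 and 10.35 in normoxia, 10.23, 10.18 and 10.12 for the hypoxia control, 10.65, 10.58 and 10.61 for the negative control, 10.60, 10.60 and 10.65 for Si1, and 10.05, 10.01 and 10.04 for Si6. The negative control and Si1 stood above normoxia, and Si6 was the lowest group. Its change was -0.16 ± 0.05 (adjusted p = 0.0238) in the hypoxia control but 0.28 ± 0.05 in the negative control (adjusted p = 0.000229). The first was lost on median centring, with only the compared groups fitted, and without hypoxia control replicate b or c or normoxia replicate b or c. With Si1 the change was 0.01 ± 0.05 (adjusted p = 0.928) and with Si6 Slc25a24 fell, at -0.58 ± 0.05 (adjusted p = 1.64e-07). Slc25a3, the phosphate importer, gave -0.06 ± 0.05 in the hypoxia control (adjusted p = 0.44) and rose by 0.18 ± 0.05 with Si1 (adjusted p = 0.00558), with 0.09 ± 0.05 for Si6 (adjusted p = 0.176). Slc25a41 passed in none.

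Of 4 carboxylate carriers, the one that changed in the hypoxia control (25%, lower, beside 11.2% of all genes) was Slc25a10. It exchanges malate and succinate for phosphate and read 8.97, 8.95 and 9.02 in normoxia, 8.28, 8.39 and 8.51 for the hypoxia control, 8.16, 8.37 and 8.17 for the negative control, 8.55, 8.49 and 8.55 for Si1, and 8.54, 8.53 and 8.61 for Si6. Normoxia was highest and both siRNA groups lay between normoxia and the negative control. It was lower in the hypoxia control at -0.58 ± 0.07 (adjusted p = 1.2e-05) and rose by 0.30 ± 0.07 with Si1 (adjusted p = 0.00236) and 0.33 ± 0.07 with Si6 (adjusted p = 0.00139). The siRNA mean remained -0.43 ± 0.06 from normoxia (adjusted p = 1.69e-05). Slc25a1, which exports citrate for lipid synthesis, gave 0.06 ± 0.05 for the hypoxia control (adjusted p = 0.462), -0.28 ± 0.05 for the negative control (adjusted p = 0.00058) and -0.21 ± 0.05 with Si1 (adjusted p = 0.00437), with -0.07 ± 0.05 for Si6 (adjusted p = 0.41). Slc25a11, the oxoglutarate/malate exchanger, gave 0.10 ± 0.06 in the hypoxia control (adjusted p = 0.314), and its Si1 call of -0.17 ± 0.06 was lost under 13 of 23 alternatives, with -0.05 ± 0.06 for Si6 (adjusted p = 0.651). Slc25a21 passed in none.

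Carriers related to the uncoupling proteins, which let protons leak across the inner membrane, were 3. Slc25a27 read 8.66, 8.61 and 8.72 in normoxia, 8.33, 8.42 and 8.40 for the hypoxia control, 8.24, 8.10 and 8.03 for the negative control, 7.51, 7.43 and 7.47 for Si1, and 8.00, 8.16 and 7.98 for Si6. Normoxia was the highest and Si1 the lowest group, and Si6 overlapped the negative control. It was lower, at -0.28 ± 0.06 (adjusted p = 0.00517) for the hypoxia control, -0.54 ± 0.06 for the negative control and -0.65 ± 0.06 with Si1 (adjusted p = 8.76e-07), with -0.07 ± 0.06 for Si6 (adjusted p = 0.47).

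Slc25a30, also of this group, read 9.88, 9.96 and 9.95 in normoxia, 9.80, 9.73 and 9.66 for the hypoxia control, 10.24, 10.21 and 10.13 for the negative control, 10.34, 10.43 and 10.37 for Si1, and 10.37, 10.58 and 10.51 for Si6. The hypoxia control was the lowest group, the negative control was above normoxia, and the siRNA groups were highest. Slc25a30 was lower in the hypoxia control at -0.20 ± 0.06 (adjusted p = 0.0279) and higher by 0.26 ± 0.06 in the negative control (adjusted p = 0.00381), and the former was lost without hypoxia control replicate b or c or normoxia replicate b or c. It rose by 0.19 ± 0.06 with Si1, a call lost without negative control replicate b or c or Si1 replicate b or c, and by 0.29 ± 0.06 with Si6. Slc25a14 passed in none. Slc25a20, which moves fatty acids as acylcarnitines, was lower in the hypoxia control at -0.29 ± 0.06 (adjusted p = 0.00201) and rose by 0.26 ± 0.06 with Si1 and 0.24 ± 0.06 with Si6. The choline carrier Slc25a48 gave 0.01 ± 0.07 in the hypoxia control (adjusted p = 0.943) with -0.15 ± 0.07 for Si1 (adjusted p = 0.118) and -0.20 ± 0.07 for Si6, the last lost under 12 of 23 alternatives.

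Among the 8 members without a settled substrate, Slc25a35 had the largest change of the family. It read 10.82, 10.89 and 10.80 in normoxia, 9.15, 9.21 and 9.20 for the hypoxia control, 8.82, 8.97 and 8.66 for the negative control, 9.11, 9.29 and 9.28 for Si1, and 9.82, 9.79 and 9.78 for Si6. Normoxia arrays were far above every hypoxic array, and Si6 was the highest hypoxic group. Slc25a35 was lower in the hypoxia control at -1.65 ± 0.07 (adjusted p = 2.27e-10), which leaves 31.8% of normoxia, and at -2.02 ± 0.07 in the negative control (adjusted p = 1.37e-11). It rose by 0.41 ± 0.07 with Si1 (adjusted p = 0.000232) and 0.98 ± 0.07 with Si6 (adjusted p = 6.01e-08), and the siRNA mean stayed -1.32 ± 0.06 against normoxia. A second probe set, annotated to both Rangrf and Slc25a35 and not used for the gene, averaged 6.98 and gave 0.06 ± 0.11 in the hypoxia control (adjusted p = 0.787). Its siRNA differences were -0.12 for Si1 (adjusted p = 0.432) and -0.22 for Si6 (adjusted p = 0.138), so it did not follow the first.

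Slc25a45 read 8.81, 8.74 and 8.81 in normoxia, 8.72, 8.76 and 8.79 for the hypoxia control, 8.64, 8.57 and 8.62 for the negative control, 8.11, 8.11 and 8.10 for Si1, and 8.45, 8.21 and 8.12 for Si6. The hypoxia control overlapped normoxia, the negative control lay just below both, and the siRNA groups were lower still. It gave -0.03 ± 0.07 in the hypoxia control (adjusted p = 0.833) and fell with both siRNAs, at -0.51 ± 0.07 for Si1 (adjusted p = 2.09e-05) and -0.35 ± 0.07 for Si6 (adjusted p = 0.000871). Slc25a46, an outer membrane protein of mitochondrial dynamics, passed only between the siRNAs, at -0.22 ± 0.06 (adjusted p = 0.0135), lost without Si1 replicate b. Slc25a34, Slc25a43, Slc25a47, Slc25a53 and Slc25a54 passed in none.

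In all, 33 of the 46 passed in at least 1 comparison and 13 in none. The share of all genes that passed in at least 1 comparison was not counted, so the counts in this paragraph have no background beside them. Of the 13, 10 were below the median of all genes by mean level, and 0 of the 10 members below that median passed any of limma's tests, although 4 had an unadjusted p under 0.05 somewhere. Of the 36 above it, 33 passed. Fold changes of dim probe sets are compressed on arrays, so changes in them are harder to detect.

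The siRNAs differed from each other in 18 of the 46 carriers, and in many other genes. Si1 against Si6 gave 8 carriers higher (17.4%) and 10 lower (21.7%), where 14.5% and 13.4% of all genes passed. Without the dimmest 50% of genes, 8 of 36 carriers were higher and 13 lower, beside 2948 and 3046 of 11090 genes. The carriers thus did not stand out in this comparison. The largest were Slc25a16 at -0.69 ± 0.06, Slc25a37 at 0.64 ± 0.06, Slc25a40 at -0.62 ± 0.07, Slc25a24 at 0.59 ± 0.05, Slc25a27 at -0.57 ± 0.06 and Slc25a35 at -0.57 ± 0.07. All 10 melanocyte markers were lower in Si1 than in Si6, and Hif1a itself differed by -0.28 ± 0.06 (adjusted p = 0.00118). Of the other cell types' markers, Cd68 was higher in Si1 at 1.13 ± 0.08, and the fibroblast markers Col1a1 and Col1a2 were lower at -0.45 ± 0.09 and -0.52 ± 0.05. Their part in the carrier differences was not tested.

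**Figure D3:**
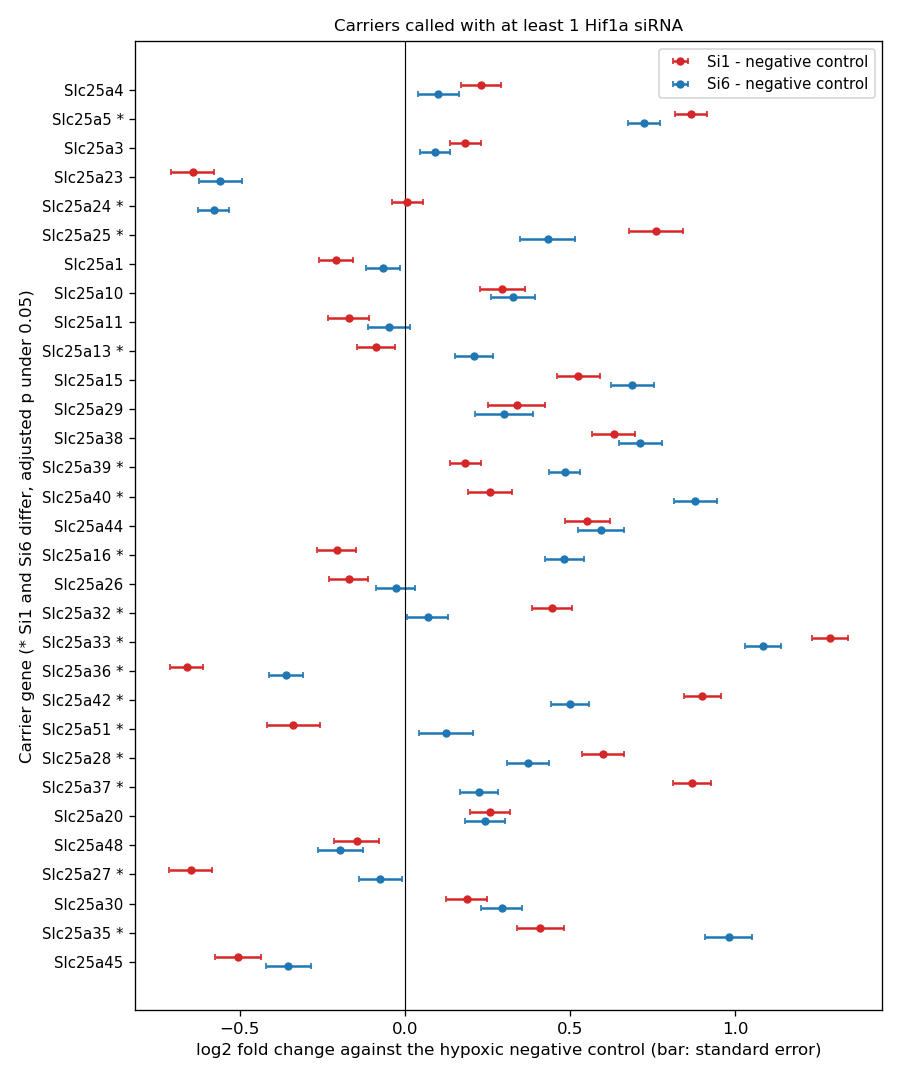
Log2 fold change against the negative control, with standard error bars, for the 31 carriers that passed with at least 1 siRNA, Si1 and Si6 side by side. Stars mark 16 carriers that also differed between Si1 and Si6, and Slc25a33 sits at the high end and Slc25a36 and Slc25a23 at the low end.

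The hypoxic controls also differed. Against the hypoxia control, the negative control had 4 carriers higher (8.7%) and 5 lower (10.9%), where 7.8% and 7.51% of all genes passed. The higher ones were Slc25a24, Slc25a30, Slc25a32 and Slc25a40 and the lower ones Slc25a1, Slc25a4, Slc25a23, Slc25a27 and Slc25a35. Of the melanocyte markers, 9 of 10 were lower in the negative control. Of the fibroblast markers, Col1a1 was higher at 0.43 ± 0.09 and Col1a2 lower at -0.20 ± 0.05. Their part in these differences was not tested.

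Set against normoxia, hypoxic cells with Hif1a siRNA (mean of Si1 and Si6) had 12 carriers higher (26.1%) and 10 lower (21.7%), where 20.8% and 16.7% of all genes passed. Slc25a40 was the highest at 0.91 ± 0.06, followed by Slc25a32 at 0.52 ± 0.05 and Slc25a30 at 0.50 ± 0.05. Slc25a23 was the lowest at -1.44 ± 0.06, before Slc25a35 at -1.32 ± 0.06 and Slc25a27 at -0.90 ± 0.06. All 10 melanocyte markers were lower than in normoxia. The fibroblast markers Col1a1 and Col1a2 were also lower, at -1.17 ± 0.08 and -0.21 ± 0.05, while the immune marker Cd68 and the endothelial marker Cdh5 were higher, at 1.15 ± 0.07 and 0.28 ± 0.08. The part of these markers here was not tested.

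Other mitochondrial transport genes, 33 measured of 38 listed, were read beside the carriers. In the hypoxia control 2 were higher (6.06%) and 6 lower (18.2%), beside 9.87% and 11.2% of all genes. In the negative control 5 were higher than in normoxia (15.2%) and 11 lower (33.3%), beside 14.6% and 15.7%. With each siRNA 16 were higher (48.5%) and 5 lower (15.2%), beside 20.2% and 14.8% of all genes for Si1 and 17% and 11.9% for Si6. The outer membrane channel Vdac1 was higher in hypoxia at 0.65 ± 0.06 (adjusted p = 1.41e-06) and lower with Si1 at -0.36 ± 0.06 and Si6 at -0.23 ± 0.06. Letm1, an ion exchanger of the inner membrane, was lower in hypoxia at -0.54 ± 0.08 (adjusted p = 0.000108) and rose by 0.88 ± 0.08 with Si1 and 0.57 ± 0.08 with Si6. The siRNAs differed here too. In Si1, 8 of the 33 were higher (24.2%) and 5 lower (15.2%) than in Si6, beside 14.5% and 13.4% of all genes. Sfxn3, with the largest fall for Si6 at -1.05, did not pass with Si1. Sfxn2, lower in the hypoxia control at -0.54 ± 0.10, rose by 0.87 with Si1 and did not pass with Si6. Slc8b1 was the lowest of the 33 in the negative control against normoxia, at -0.81 ± 0.06. Mpc1, a subunit of the pyruvate carrier, gave -0.13 ± 0.07 in the hypoxia control (adjusted p = 0.207) and was lower in the negative control at -0.41 ± 0.07 (adjusted p = 0.000237). From that negative control it rose by 0.50 ± 0.07 with Si1 and 0.39 ± 0.07 with Si6, and the siRNA mean was 0.04 ± 0.06 from normoxia (adjusted p = 0.677). Of 12 genes that bring carriers into the membrane, 8 rose (66.7%) and 1 fell (8.33%) with Si1, and 4 rose (33.3%) and 1 fell (8.33%) with Si6. Those shares of all genes were again 20.2% and 14.8% for Si1 and 17% and 11.9% for Si6. Among them Timm9, a chaperone of the space between the membranes, rose by 1.11 ± 0.12 and 0.82 ± 0.12.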

How the data were processed

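RNA of 15 arrays in 5 groups of 3 was measured. Per the submitters' processing notes the authors used RMA and Partek, without version or settings, and deposited log2 intensities of 41345 probe sets; the genome build is not given in the sources used here. Platform annotation gave 23521 probe sets 1 symbol, 1814 several and 16010 none. Genes with 1 symbol were read by the probe set with the highest mean, giving 22180 genes. Groups came from the sample labels. Quantile normalization within RMA keeps a shift of all genes together from being seen.

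In R 4.3.3, limma 3.58.1 fitted 5 group means to all arrays, with two-sided tests at an adjusted p under 0.05 (Benjamini-Hochberg, across the 22180 genes). The script was tested on simulated data. P-values measure the spread between triplicate cultures, and the number of arrays limits precision. Values on every array are given for members past the test with an absolute log2 fold change of at least 0.5, at most the 6 largest rises and falls of each comparison; others follow by counts or fold changes. Promoters could be printed for up to 4 members with the largest hypoxia rise or siRNA fall. Of a list of other mitochondrial transport genes, up to 4 per comparison could be named; Mpc1 was added after its values were seen. The members and lists were chosen with earlier results of these data known. Alternatives changed the scaling (quantile normalization again, or median centring), dropped the dimmest 25% or 50% of genes, averaged probe sets, used trend and robust moderation, fitted only the compared groups, added the replicate letter as a block, or left out 1 array at a time. Protein sequences are not used here.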

Additional observations from a re-analysis of the deposited data

Results flagged for a closer look

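Responses to the 2 siRNAs differed by limma's test of Si1 against Si6 for 6 carriers with an absolute log2 fold change of at least 0.5. Slc25a16 differed by -0.69, being lower with Si1 and higher with Si6 than the negative control, although the first call was lost on median centring. Slc25a24 differed by 0.59, with 0.01 for Si1 and -0.58 for Si6. Slc25a27 differed by -0.57, with -0.65 and -0.07, and Slc25a35 by -0.57, with 0.41 and 0.98. Slc25a37 differed by 0.64, with 0.87 and 0.22. Slc25a40 differed by -0.62, with 0.26 and 0.88.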

How the results depend on the processing

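The counts of carriers higher and lower in the 7 comparisons stayed within 1.5 times under 23 alternatives, and 51 changes of at least 0.5 kept their direction and their side of the threshold. The number of carriers higher in the hypoxia control and lower with Si1, 1 as deposited, was 3 after another quantile normalization, 2 without the lowest 25% or 50% of genes, 2 with eBayes trend and robust settings, 2 with the replicate block and 1 to 2 when an array was left out. Carriers lower in the hypoxia control ranged from 14 to 18, and those lower with Si1 from 6 on median centring to 12 after another quantile normalization. With the replicate block, 3 carriers were higher and 17 lower in the hypoxia control, 19 and 9 with Si1, and 18 and 4 with Si6. Same-letter samples did not deviate together, with correlations from -0.22 to 0.21 over 30 pairs and 3 above 0.1. No shared effect of a letter was thus seen, but these correlations cannot tell whether same-letter cultures were handled together. Calls lost in some alternatives had absolute log2 fold changes of at most 0.30, and none was called in the opposite direction. Signal over background is not known per probe set, so dim members could change unseen.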
